A study of Mus musculus with 6 samples.

Results

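The messenger RNAs of 42 factors that build or run ribosomes were followed in the mouse uterus after 1 injection of progesterone: 26 nucleolar factors of ribosome biogenesis and 16 translation factors. A member was taken where the platform annotation gives its symbol as the only gene of a probe set, and the probe set with the highest mean over the arrays stood for the gene. On this basis 39 of the 42 had a probe set, out of 8251 genes on the array. Dkc1, Npm3 and Eif2s1 were not analysed here for want of such a probe set. A floor was set at 6.60 on the log2 scale (96.9 on the linear scale), and a gene was analysed where its probe set exceeded it on at least 2 arrays. Wdr12, Eif4e and Eif5a exceeded it on none, which left 36 members (23 nucleolar and 13 translation factors) among 5915 genes analysed.

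Ribosomes are assembled in the nucleolus, where RNA polymerase I transcribes the ribosomal RNA precursor, small nucleolar ribonucleoproteins (snoRNPs) guide its methylation and pseudouridylation, and a succession of assembly factors fold and trim the large and small subunits. In the cytoplasm, initiation factors bring ribosome, messenger RNA and initiator transfer RNA together and elongation factors drive the ribosome along the message. In the uterus, steroid hormones set the growth of the tissue, and the making of ribosomes is a large part of what a growing cell spends.

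All mice were 129/SvImJ females, wildtype and 10 to 16 weeks old, whose ovaries had been taken out 14 days earlier, and RNA came from the whole uterus. The groups were uninjected mice (0 h) and mice killed 6, 12, 15, 18 or 24 h after 0.2 mg progesterone, given under the skin in 0.1 mL sesame oil. Each group was 1 Affymetrix array of RNA pooled from 8 horns of 4 mice, so no group has a replicate, the number of arrays limits every value, and oil-injected mice were not analysed here. All differences from 0 h share the single 0 h array, and the effects of progesterone, of the injection and of that one pool cannot be told apart. Arrays were alike in overall level, with medians of 7.12 to 7.22 (log2), and the 0 h array correlated less with the others (0.9386 to 0.9529 across probe sets) than the progesterone arrays did among themselves (0.9584 to 0.9906). Markers of the uterine layers were present: 15 of 15 epithelial, 11 of 12 stromal and 9 of 10 smooth muscle markers on the array passed the filter, as did 7 of 13 immune and 3 of 4 adipocyte markers. The RNA is that of whole tissue, in which fewer cells of a type and less RNA per cell cannot be told apart.

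The first question was how the members stood against the uninjected uterus at each time. The nucleolar members were higher as a group, most of all from 6 to 15 h, while the translation members lay close to their 0 h level. The median log2 difference from 0 h over the 23 nucleolar factors was 0.57, 0.66, 0.77, 0.47 and 0.29, in the order 6, 12, 15, 18 and 24 h. Over the 13 translation factors it was 0.16, 0.18, 0.26, 0.01 and 0.08 at the same times. Over 69 other ribosome biogenesis factors, described below, it was 0.18, 0.21, 0.25, 0.09 and 0.03, near the translation medians. The contrast between the classes is thus that of the members, which were picked with earlier results of these data known. All 5915 genes analysed gave medians of -0.06, 0.03, 0.03, -0.04 and 0. The medians of both classes thus stood above the general level at each time, though the translation medians were 0.26 or less. The ranges of the 2 classes overlapped at every time, at 6 h from -0.26 to 1.69 for nucleolar and from -0.18 to 0.69 for translation factors. With 1 array per time these values have no test.

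**Figure D1:**
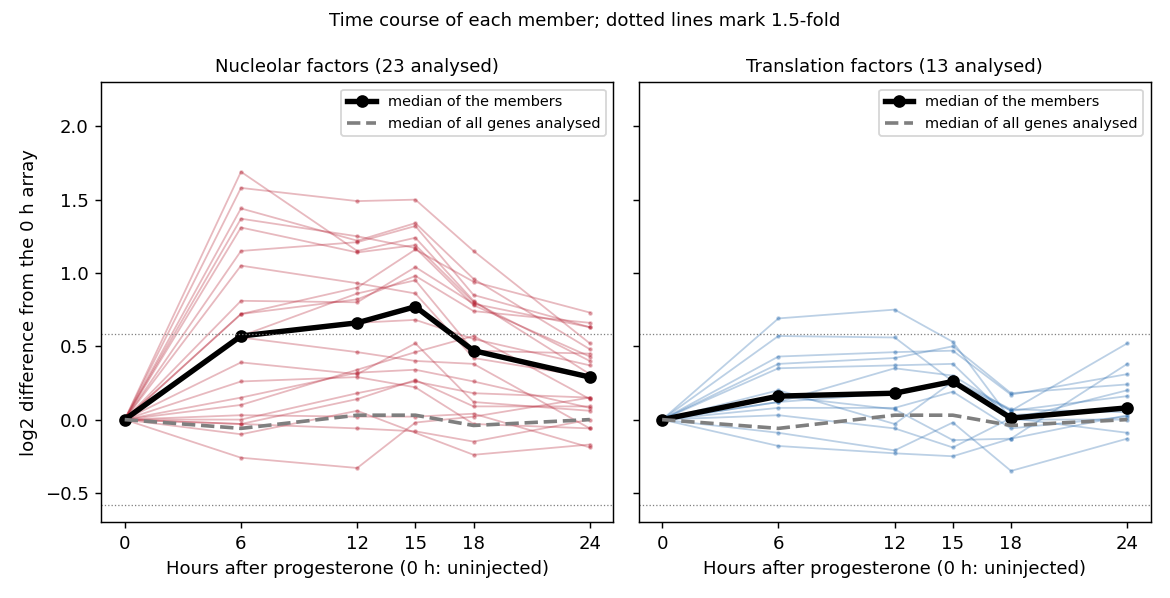
Log2 difference from the 0 h array (y axis) against hours after progesterone (x axis) for each of the 23 nucleolar and 13 translation factors analysed (thin lines), with the median of each class (black) and of all genes analysed (dashed grey); dotted lines mark 1.5-fold. The nucleolar median stands at 0.57 to 0.77 from 6 to 15 h and at 0.29 at 24 h, and the translation median between 0.01 and 0.26.

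Counted at 1.5-fold, 11 of 36 members were higher at 6 h, against 4.64% of all genes analysed. The 12 h array had 13 of 36 (6.92% of all genes) and the 15 h array 12 of 35 (7.98%). The 18 h array had 9 of 36 (4.37%), and the 24 h array 4 of 36 (4.88%), a share nearer to the background. All but 1 of these at 6 and 12 h, and all of them later, were nucleolar factors. The exception at 6 and 12 h was the helicase Eif4a1. No member was 1.5-fold lower at any time, against 6.06%, 6.3%, 5.93%, 7% and 5.1% of all genes at 6, 12, 15, 18 and 24 h. At 2-fold the counts in the same order of times were 7, 6, 8, 1 and 0 members, against 1.54%, 1.86%, 2.1%, 1.14% and 1.07% of all genes.

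**Figure D2:**
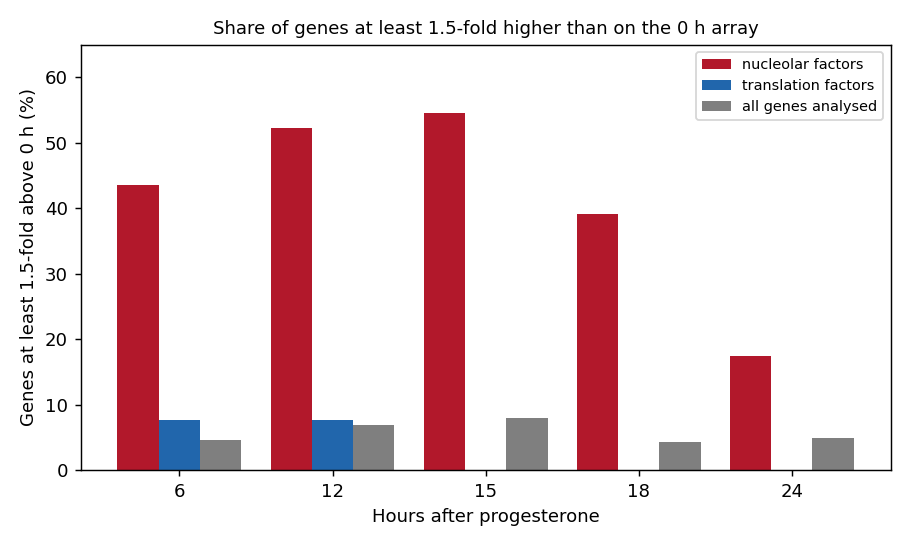
Percentage of genes at least 1.5-fold above the 0 h array (y axis, from 0) at each time (x axis) for nucleolar factors (red), translation factors (blue) and all genes analysed (grey). Nucleolar factors reach 54.5% at 15 h and 17.4% at 24 h, while translation factors are at 7.69% at 6 and 12 h and 0 later.

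All 5 progesterone arrays lay above the 0 h array for 21 of the 35 members with a value on every array, against 20.3% of all such genes. Among them were 15 of 22 nucleolar and 6 of 13 translation factors. Npm1 and Eif5 lay below 0 h on all 5, against 27.6% of genes. The heat map of differences shows that the nucleolar factors differed between roles and also within them. They are taken below from transcription of ribosomal RNA to subunit assembly.

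**Figure D3:**
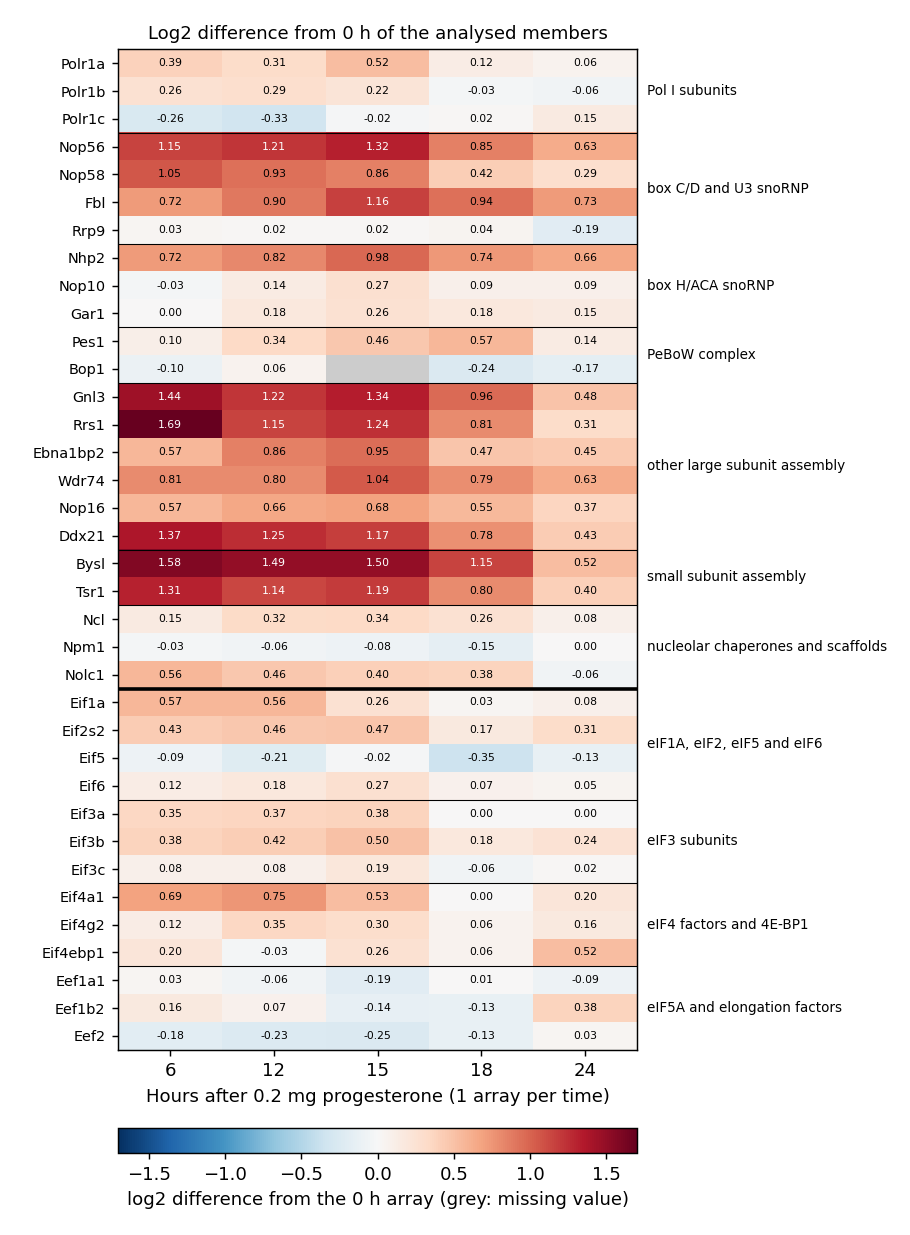
Log2 difference from the 0 h array of the 36 members analysed (rows, grouped by role; the thick line parts nucleolar from translation factors) at 6 to 24 h after progesterone (columns, 1 array each); red is higher and blue lower than 0 h, and the grey cell is the missing 15 h value of Bop1. The deepest red lies in the box C/D snoRNP and subunit assembly rows from 6 to 15 h, where Rrs1 reaches 1.69 and Bysl 1.58.

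The 3 subunits of RNA polymerase I stayed within 1.5-fold of 0 h at every time. Polr1a, the largest subunit, had log2 levels of 7.79 at 0 h and 8.18, 8.10, 8.31, 7.91 and 7.84 at 6, 12, 15, 18 and 24 h. Its highest difference was thus 0.52 at 15 h (1.44-fold), and its level at 18 and 24 h was within 0.12 of 0 h. Polr1b, the second largest subunit, followed a similar course with differences of 0.22 to 0.29 until 15 h and of -0.03 and -0.06 later. Polr1c, which polymerases I and III share, went the other way, with -0.26 and -0.33 at 6 and 12 h and 0.15 at 24 h. None passed the test of the 5 progesterone arrays against 0 h (adjusted p = 0.49, 0.72 and 0.85 with limma). This test takes the spread between the 5 times as its error and assumes that the lone 0 h array varies like the others. It was adjusted by the Benjamini-Hochberg method over all probe sets tested.

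The snoRNP proteins differed among themselves within both classes. Box C/D snoRNPs guide methylation of ribosomal RNA, and their 3 core proteins on the array were all above 0 h on every progesterone array. Fbl, the methyltransferase fibrillarin, had log2 levels of 9.63 at 0 h and 10.34, 10.53, 10.78, 10.56 and 10.35 afterwards. The lowest progesterone array was thus 0.72 above 0 h, and Fbl rose by 0.89 ± 0.17 (SE, limma adjusted p = 0.042). Nop56, a scaffold of the particle, stood at 7.48 at 0 h and at 8.64, 8.69, 8.81, 8.34 and 8.11, which made it 2.5-fold higher at 15 h. Its estimate of 1.03 ± 0.25 did not pass (adjusted p = 0.076). Nop58, the partner of Nop56, was highest at 6 h, at 9.11 against 8.07 at 0 h, and stood at 8.99, 8.92, 8.48 and 8.35 later. Its estimate of 0.71 ± 0.28 did not pass either (adjusted p = 0.23). Rrp9, a protein of the U3 particle that guides the early cuts of the precursor, showed no such step, with differences between -0.19 and 0.04.

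In the box H/ACA snoRNP, which guides pseudouridylation, 1 of the 3 proteins analysed stood apart. Nhp2 had levels of 9.47 at 0 h and 10.18, 10.29, 10.44, 10.21 and 10.13 afterwards, at least 0.66 above 0 h on each array. It rose by 0.78 ± 0.14 (adjusted p = 0.033). Gar1 and Nop10, which sit in the same particle, differed from 0 h by 0 to 0.26 and by -0.03 to 0.27, and neither passed (adjusted p = 0.59 and 0.71). The difference between Nhp2 and its partners was not tested.

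The largest differences were those of subunit assembly factors. Rrs1, which brings the 5S RNA particle into the large subunit, had the largest difference from 0 h of any member: its level went from 7.48 at 0 h to 9.17 at 6 h (3.22-fold) and stood at 8.63, 8.73, 8.29 and 7.80 at 12, 15, 18 and 24 h. Every progesterone array was above 0 h, but the 24 h array by 0.31 only. Bysl, the small subunit factor bystin, was 2.99-fold higher at 6 h, with levels of 7.12 at 0 h and 8.70, 8.62, 8.62, 8.27 and 7.64 later. Gnl3, the GTPase nucleostemin, had 7.27 at 0 h and 8.70, 8.49, 8.61, 8.23 and 7.75. Ddx21, an RNA helicase of the nucleolus, had 7.57 at 0 h and 8.94, 8.82, 8.75, 8.35 and 8.00. Both were thus at their highest at 6 h, 2.71-fold and 2.58-fold above 0 h, and nearest to 0 h on the 24 h array. Tsr1, a small subunit factor that resembles a translational GTPase, was likewise highest at 6 h and, after it, lowest at 24 h, with 7.85 at 0 h and 9.15, 8.99, 9.04, 8.64 and 8.24 later.

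These 5 did not pass the test against 0 h, which counts their spread between times as error. The estimates were 1.25 ± 0.36 for Bysl, 1.09 ± 0.32 for Gnl3, 1.04 ± 0.42 for Rrs1, 1 ± 0.32 for Ddx21 and 0.97 ± 0.31 for Tsr1, with adjusted p from 0.11 to 0.23. Which members passed changed with the array left out. Without the 24 h array, on which these 5 are nearest to 0 h, 8 members passed in place of 3. Bysl, Ddx21, Gnl3, Nop56 and Tsr1 then joined Fbl, Nhp2 and Wdr74, where 86 of 7679 probe sets rose. Without the 6 h array 4 members passed, where 406 of 7646 probe sets rose. Without 12, 15 or 18 h 0 members passed, where 19 of 7682, 17 of 7683 and 32 of 7667 probe sets rose.

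Other large subunit factors were higher with less change over time. Wdr74, which works with the ATPase that releases assembly factors, had levels of 7.90 at 0 h and 8.71, 8.70, 8.94, 8.69 and 8.53. It rose by 0.81 ± 0.16 (adjusted p = 0.045), with no difference under 0.63. Ebna1bp2 went from 7.82 to a highest level of 8.77 at 15 h (0.66 ± 0.22, adjusted p = 0.15), and Nop16 from 8.37 to 9.06 (0.57 ± 0.15, adjusted p = 0.094). A second probe set of Nop16 rose by 0.69 ± 0.13 (adjusted p = 0.037). Of the PeBoW complex, which matures the large subunit RNA, Pes1 differed by 0.10 to 0.57, highest at 18 h, and did not pass (adjusted p = 0.44). Bop1 gave 2 answers: its chosen probe set lay between -0.24 and 0.06, with 15 h missing and 1 fewer residual degree of freedom, while its other probe set, below the floor at 0 h, was higher by at least 0.59 to 0.80 until 18 h (adjusted p = 0.77 and 0.21).

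Of the nucleolar chaperones and scaffolds, Ncl and Npm1 stayed near 0 h and Nolc1 was higher early. Ncl (nucleolin) had levels of 11.63 at 0 h and 11.78, 11.96, 11.97, 11.89 and 11.71. Npm1 (nucleophosmin) had 11.65 at 0 h and 11.50 to 11.65 later, with an estimate of -0.07 ± 0.10 (adjusted p = 0.79). Nolc1, which chaperones snoRNPs, was higher by 0.56 at 6 h and within 0.06 of 0 h at 24 h (adjusted p = 0.45). In this group no value was 1.5-fold from 0 h.

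Promoters were compared between the classes and between nucleolar factors that did and did not reach 1.5-fold. RefSeq (GRCm38.p6) gave a window from 250 bases before to 50 after the start for 22 of the 26 nucleolar and 12 of the 16 translation factors, taking the first listed start of each gene. The windows were searched on both strands for 5 motifs, chosen with the members' values known: the E-box CACGTG that Myc binds, a relative of it in CACGCG, the core CCGGAA bound by ETS factors, the TATA box as TATAAA and the CCAAT box. Shown are the 150 bases before the start of the 4 nucleolar factors in the table with the highest 6 h difference, and for contrast those of the elongation factors Eef1a1 and Eef2, with the E-box, its relative and the ETS core in capitals on either strand.
Bysl (chr17:47611493-47611642, minus strand): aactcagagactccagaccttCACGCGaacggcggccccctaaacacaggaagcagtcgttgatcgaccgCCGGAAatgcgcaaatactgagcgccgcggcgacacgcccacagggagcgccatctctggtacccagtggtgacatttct
Gnl3 (chr14:31019132-31019281, minus strand): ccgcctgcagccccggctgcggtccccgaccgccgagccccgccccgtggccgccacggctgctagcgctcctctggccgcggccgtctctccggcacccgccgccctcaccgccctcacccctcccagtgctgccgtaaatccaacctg
Ddx21 (chr10:62602299-62602448, minus strand): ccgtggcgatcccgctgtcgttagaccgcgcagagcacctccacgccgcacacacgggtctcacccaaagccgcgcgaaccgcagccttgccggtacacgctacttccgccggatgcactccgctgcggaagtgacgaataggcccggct
Tsr1 (chr11:74897930-74898079, plus strand): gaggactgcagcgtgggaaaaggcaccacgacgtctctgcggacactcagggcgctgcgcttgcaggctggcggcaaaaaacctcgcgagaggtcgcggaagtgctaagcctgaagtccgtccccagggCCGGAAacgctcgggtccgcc
Eef1a1 (chr9:78481725-78481874, minus strand): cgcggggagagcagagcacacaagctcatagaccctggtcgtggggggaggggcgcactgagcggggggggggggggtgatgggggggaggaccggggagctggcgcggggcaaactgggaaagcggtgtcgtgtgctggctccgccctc
Eef2 (chr10:81176481-81176630, plus strand): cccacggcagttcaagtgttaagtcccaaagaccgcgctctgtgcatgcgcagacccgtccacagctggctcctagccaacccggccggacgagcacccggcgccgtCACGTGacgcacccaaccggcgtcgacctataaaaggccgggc

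CACGTG was found in 2 of the 22 nucleolar windows (9.09%) and in 3 of the 12 translation windows (25%), against 10.7% of the 4756 genes analysed that the table holds and 7.24% of all 27025 genes in it. CACGCG was found in 8 nucleolar windows (36.4%) and 1 translation window (8.33%), against 17.4% and 9.36%. CCGGAA was found in 11 nucleolar windows (50%) and 2 translation windows (16.7%), against 27.8% and 15.2%. Among nucleolar factors that reached 1.5-fold at some time, 6 of 10 windows held CCGGAA and 4 held CACGCG, and among those that did not, 4 of 9 held CCGGAA and 4 CACGCG. In the sequences shown, Bysl holds CACGCG and CCGGAA, Tsr1 holds CCGGAA, with a second match across its start, and Eef2 holds CACGTG. Ddx21 has its CACGCG 38 bases and Tsr1 its CACGTG 24 bases after the start, outside the stretch shown, and Gnl3 and Eef1a1 have none of the motifs marked in capitals. TATAAA was found in 2 nucleolar and 3 translation windows (8.49% and 14.2% of the larger sets) and CCAAT in 6 and 2 (38.2% and 37.9%).

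Translation factors came next, in the order in which they act. Eif1a, which helps the small subunit scan the message, had levels of 8.52 at 0 h and 9.09, 9.08, 8.78, 8.55 and 8.60. It was thus 1.49-fold higher at 6 h and back within 0.08 of 0 h from 18 h, but a second probe set of the gene differed by -0.13 to 0.36. Eif2s2, the beta subunit of the factor that carries initiator transfer RNA, was below the floor at 0 h, and its differences of 0.17 to 0.47 are lower limits (0.37 ± 0.14, adjusted p = 0.20). Eif5, which triggers hydrolysis of the GTP on that factor, was below 0 h on all 5 arrays by -0.35 to -0.02 (adjusted p = 0.62). Eif6, which keeps the large subunit from joining too early and also serves in its assembly, lay 0.05 to 0.27 above 0 h (adjusted p = 0.64).

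The scaffold subunits of eIF3, the factor that holds the initiation complex together, moved little. Eif3b had levels of 9.82 at 0 h and 10.20, 10.24, 10.32, 10.00 and 10.06, and its estimate of 0.35 ± 0.15 did not pass (adjusted p = 0.25). Eif3a was 0.35 to 0.38 higher until 15 h and at its 0 h level at 18 and 24 h. Eif3c differed by -0.06 to 0.19. Of the cap-binding machinery, Eif4a1, the helicase that unwinds messages, was below the floor at 0 h and higher by at least 0.69 and 0.75 at 6 and 12 h, and was below the floor again at 18 h (0.43 ± 0.27, adjusted p = 0.44). Eif4g2, a scaffold used in cap-independent initiation, differed by 0.06 to 0.35. Eif4ebp1, the inhibitor that binds eIF4E when mTOR is inactive, had its highest difference at 24 h, at 0.52, with -0.03 to 0.26 before.

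Elongation factors stayed within 0.38 of 0 h. Eef1a1, which delivers aminoacyl-tRNA, had log2 levels of 13.08 at 0 h and 12.89 to 13.11 afterwards, with an estimate of -0.06 ± 0.11 (adjusted p = 0.83). Eef2, which moves the ribosome by 1 codon, had 12.20 at 0 h and 12.02, 11.97, 11.95, 12.07 and 12.23, or -0.15 ± 0.13 (adjusted p = 0.58). Eef1b2, the exchange factor of Eef1a1, differed by -0.14 to 0.38. In all, 0 of 13 translation factors passed the limma test against 0 h, and 2 of 13 had an unadjusted p under 0.05, against 19% of probe sets.

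Over all members, 3 of 36 rose against 0 h (Fbl, Nhp2 and Wdr74) and 0 fell, where 0.893% of the 7724 probe sets tested rose and 1.8% fell. An unadjusted p under 0.05 was found for 14 of 36, against 19%. The calls of Fbl, Nhp2 and Wdr74 were lost when the 12, 15 or 18 h array was left out, with adjusted p of up to 0.11 for Fbl, 0.097 for Nhp2 and 0.12 for Wdr74, and none passed with no filter on low values (0.13, 0.072 and 0.1). A straight line over hours on all 6 arrays called 0 members with limma, and 1 had an unadjusted p under 0.05, against 0.194% of probe sets that rose, 0.116% that fell and 16.2% under 0.05.

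**Figure D4:**
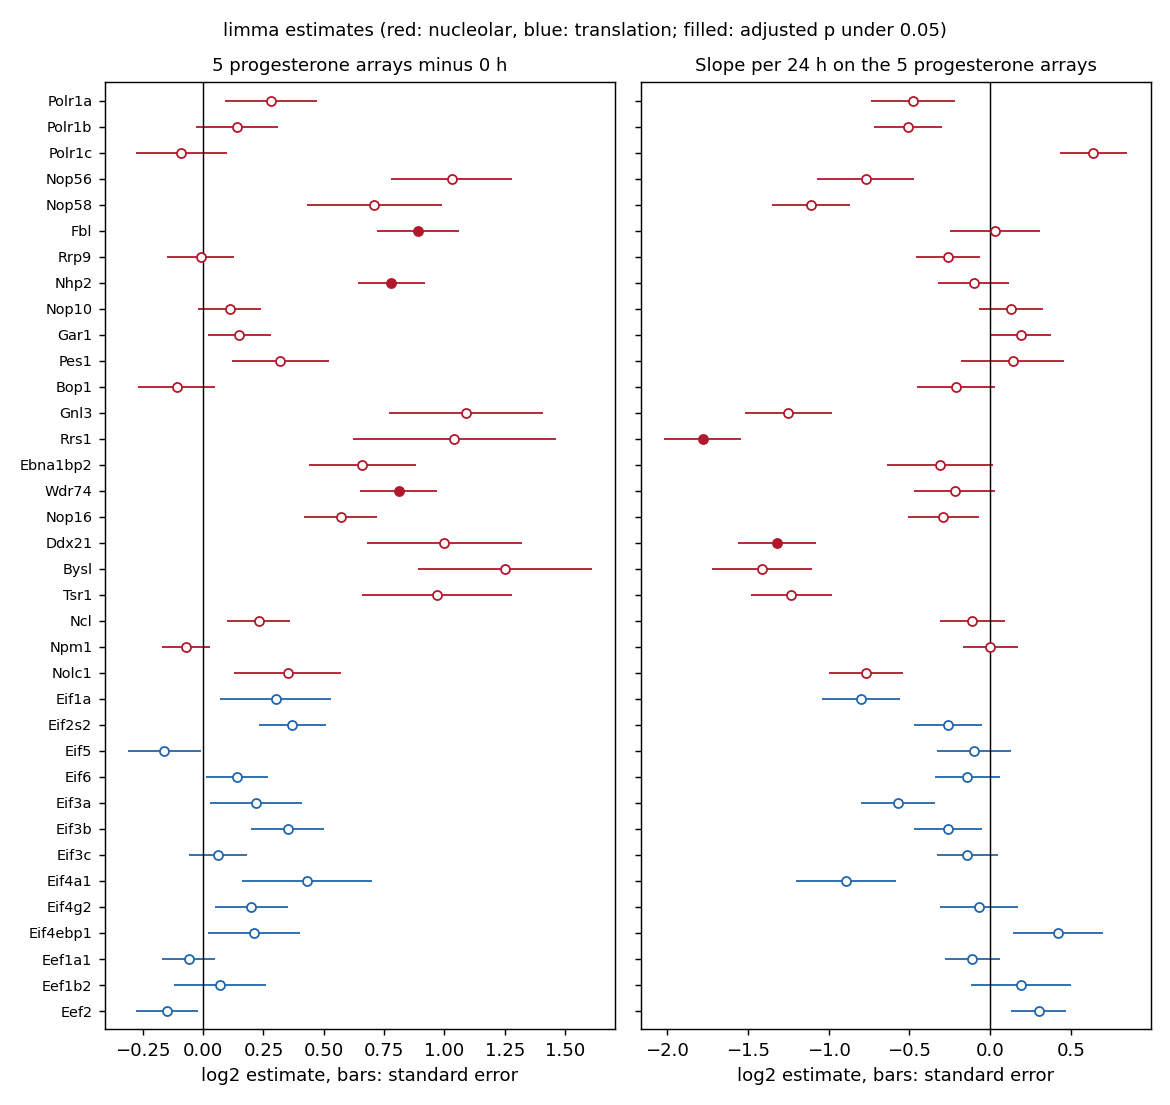
limma estimates with standard errors (x axis, log2) for the 36 members (rows; red nucleolar, blue translation), left for the 5 progesterone arrays minus the 0 h array and right for the slope per 24 h on the 5 progesterone arrays; filled points have an adjusted p under 0.05. Filled on the left are Fbl (0.89), Nhp2 (0.78) and Wdr74 (0.81) and on the right Rrs1 (-1.78) and Ddx21 (-1.32).

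The second question was how members changed between 6 and 24 h, fitted on the progesterone arrays, though the floor and the filter also used the 0 h array. From 6 to 24 h, 7 of 36 members were at least 1.5-fold lower, against 4.39% of genes, and 0 were 1.5-fold higher, against 5.56%. All 7 were nucleolar: Rrs1 by -1.37 (log2, 24 h minus 6 h), Bysl by -1.06, Gnl3 by -0.95, Ddx21 by -0.94, Tsr1 by -0.91, Nop58 by -0.76 and Nolc1 by -0.62. With hours as a number on these 5 arrays, Rrs1 fell by 1.78 ± 0.24 per 24 h (SE, limma adjusted p = 0.026) and Ddx21 fell by 1.32 ± 0.24 (adjusted p = 0.043), where 0.88% of 7729 probe sets fell and 1.02% rose. Nop58, Gnl3, Bysl and Tsr1 had slopes of -1.11, -1.25, -1.41 and -1.23 per 24 h and just missed the threshold (adjusted p = 0.061, 0.064, 0.064 and 0.056). They passed together with the other 2 after quantile normalization, after scaling to a common trimmed mean, and with the floor and filter set without the 0 h array. In that order 128 of 7722, 107 of 7739 and 98 of 7649 probe sets fell, against 68 of 7729 in the main fit. With no filter on low values 0 members passed, and 0 of 12422 probe sets did. Rrs1 passed without 12 or 15 h and not without 6, 18 or 24 h, and Ddx21 did not pass when any of the 5 was left out. Of all members, 13 of 36 had an unadjusted p under 0.05 in this fit, against 21.4% of probe sets.

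Fbl, Nhp2, Wdr74 and Nop56 were the members at least 1.5-fold above 0 h at all 5 times, 4 of 35 against 1.31% of genes. A gene chosen by this rule is high at 24 h by that choice, so that none was among the 7 above is a description. Between 6 and 24 h Fbl changed by 0.01, Nhp2 by -0.06, Wdr74 by -0.18 and Nop56 by -0.52, and their slopes on the progesterone arrays did not pass (adjusted p = 0.97, 0.86, 0.68 and 0.19). At 6, 12 and 15 h alone, 10 of 35 members were past 1.5-fold at each time, against 2.93% of genes, and these were the 4 together with Nop58, Gnl3, Rrs1, Ddx21, Bysl and Tsr1. Among translation factors Eif1a and Eif4a1 had slopes of -0.80 and -0.89 per 24 h and Eef2 one of 0.30, none of which passed. The times of the highest value also differed: 7 of 22 nucleolar factors were highest at 6 h and 10 at 15 h, against 21.6% and 27.7% of all genes, and 2 of 22 at 24 h, against 23.2%.

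The third question was how other genes of the pathway behaved, from lists of the same machinery. Aminoacyl-tRNA synthetases, which load transfer RNAs, followed the nucleolar course: the median of 20 genes was 0.54, 0.61, 0.68, 0.46 and 0.27 at the 5 times, and at 15 h 12 of 20 were at least 1.5-fold higher, against 7.98% of genes. Tars, for threonine, was higher by 0.93, 1.07, 1.13, 0.71 and 0.58, Mars1, for methionine, by up to 1.01, Farsb, for phenylalanine, by up to 1.01, and Eprs, for glutamate and proline, by up to 0.99. None of the 20 passed the limma test against 0 h (adjusted p = 0.076, 0.093, 0.10 and 0.093 for these 4), and 11 of 20 had an unadjusted p under 0.05, against 19% of probe sets. Of 69 other ribosome biogenesis factors, the median was 0.18, 0.21, 0.25, 0.09 and 0.03 over the 5 times. At least 1.5-fold higher were 13 of the 69 at 6 h and 0 at 24 h, against 4.64% and 4.88% of all genes. Ltv1, an export factor of the small subunit, was higher by 1.37, 1.30, 1.41, 0.95 and 0.50, and Pno1, an RNA-binding factor of the same subunit, by 1.25, 1.26, 1.20, 0.64 and 0.50. Ftsj3, an RNA methyltransferase below the floor at 0 h, had differences of 1.01 (6 h) to 0.07 (24 h), which are lower limits. Nop53, a large subunit factor, was lower by -0.59, -1.1, -1.07, -0.78 and -0.59. None of the 69 passed against 0 h or in the trend on the progesterone arrays with limma. An unadjusted p under 0.05 was found for 10 and 21 of them, against 19% and 21.4% of probe sets.

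**Figure D5:**
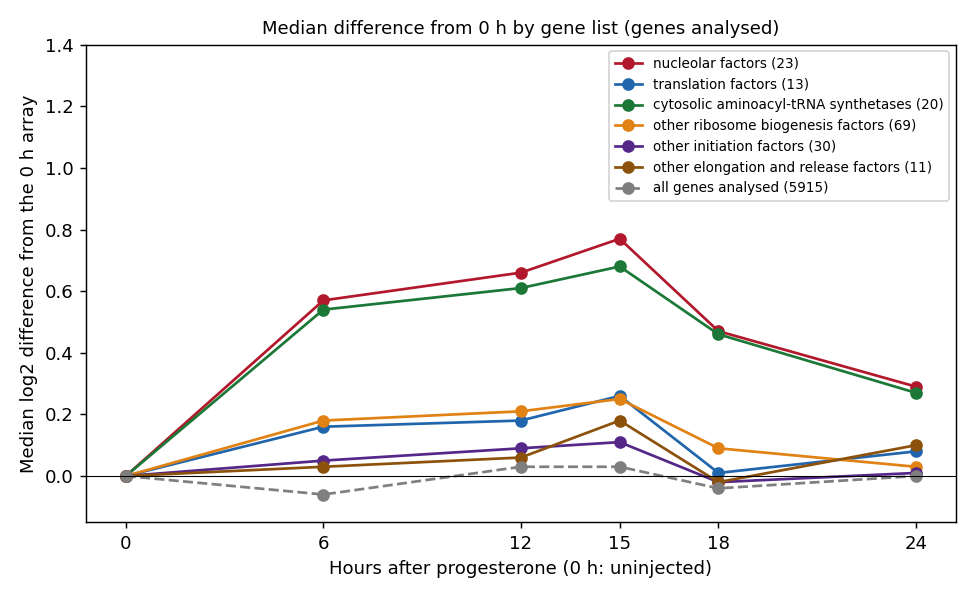
Median log2 difference from the 0 h array (y axis) against hours after progesterone (x axis) for the members' 2 classes, 4 further lists of the pathway and all genes analysed (dashed), with the number of genes in brackets. Aminoacyl-tRNA synthetases reach 0.68 at 15 h beside 0.77 for the nucleolar factors, and the other lists stay at 0.26 or less.

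Other initiation factors had a median between -0.02 and 0.11 over 30 genes, and 0 of 30 passed against 0 h with limma (8 had an unadjusted p under 0.05, against 19% of probe sets). Abce1, which splits ribosomes after termination, was higher by 1.09, 1.06, 1.27, 0.81 and 0.56 (adjusted p = 0.085), and Pabpc4, a poly(A)-binding protein, by 0.51 to 1.03 (adjusted p = 0.086). Eif4b, the partner of Eif4a1, was lower by -0.52, -0.83, -0.70, -0.53 and -0.24 (adjusted p = 0.18), and Eif2a by -0.73 to -0.15 (adjusted p = 0.24). Of 11 other elongation and release factors 1 passed, where 0.893% of probe sets rose. This was Gspt1, the GTPase of termination, which rose by 0.73 ± 0.14 (limma adjusted p = 0.041). It did not pass without 12, 15 or 18 h (adjusted p of up to 0.11) or with no filter (0.061). Its partner Etf1 was higher by 0.75 at 6 h and 0.25 at 24 h (adjusted p = 0.31).

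Among 24 upstream growth regulators, 1 rose and 2 fell against 0 h, where 0.893% of probe sets rose and 1.8% fell. Srm, which makes the spermidine used to modify eIF5A, rose by 1.64 ± 0.22 (adjusted p = 0.014, or 0.066 with no filter on low values), and Odc1, the enzyme before it in polyamine synthesis, was higher by at least 0.71 to 1.44 (adjusted p = 0.085). Mxi1, a partner of Max that opposes Myc, fell by 1.17 ± 0.15 (adjusted p = 0.012), and Mycl, a member of the Myc family, fell by 0.97 ± 0.13 (adjusted p = 0.015, or 0.053 without 15 h). Myc itself, named after its values were seen, had log2 levels of 7.33 at 0 h and 8.77, 8.29, 8.19, 8.01 and 8.17 and did not pass (0.95 ± 0.25, adjusted p = 0.094).

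Levels of cell type markers moved on the same arrays. The summed linear level of 15 epithelial markers on the progesterone arrays was 0.684 to 0.818 of that at 0 h, that of 12 stromal markers 1.02 to 1.30, of 9 smooth muscle markers 0.963 to 1.36, of 10 endothelial markers 0.767 to 0.866 and of 13 immune markers 0.695 to 0.811. For 3 adipocyte markers it was 0.362 to 0.598 and for 4 erythroid markers 0.762 to 1.32. The muscle gene Actg2 and the adipocyte gene Lpl were left out of these sums, as they have no value on some arrays. The sum of 13 proliferation genes was 0.870 to 1.27 of 0 h, lowest at 6 h; Mki67, Top2a, Mcm6, Rrm2 and Birc5 did not pass the filter, nor did the stromal marker Vim, the muscle marker Myl9, the endothelial marker Pecam1 and the leukocyte marker Ptprc. In the epithelial list 3 of 15 fell, against 1.8% of probe sets, and 0 rose. The 3 were the keratin Krt18, the adhesion molecule Epcam and lactotransferrin, Ltf (limma adjusted p = 0.024, 0.01 and 0.035). Of this list 12 of 15 lay below 0 h on all 5 arrays, while Cldn3, Cldn4 and Cldn7 had median differences of 0.47, 0.16 and 0.11. Of 9 endothelial markers 1 fell, Cldn5, and of 11 stromal markers 1 fell, Fbln1 (limma adjusted p = 0.01 and 0.031). Other markers of these lists were mixed. Below 0 h on all 5 arrays lay 2 of 9 endothelial (Cldn5, Vwf) and 3 of 11 stromal markers (Fbln1, Dcn, Thy1), against 27.6% of genes. Above it on all 5 lay 1 endothelial and 5 stromal markers, against 20.3%. The median over genes of the median difference was -0.09 in the endothelial and 0.45 in the stromal list. In the trend on the progesterone arrays 3 of 11 stromal markers rose, against 1.02% of probe sets. The part of these shifts in the members' differences was not tested.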

How the data were processed

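Each of 6 pooled uterus samples was measured on 1 Affymetrix array, grouped by the time that its title gives. The authors deposited 1 log2 value per probe set and array, made with software, background correction and normalization not given in the sources used here; the base was read from the values. They share a lower limit of 5.39, which compresses differences of weak genes. The 65 controls of 12487 probe sets were left out, and 121 missing values stayed so.

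The 2% trimmed means of the columns lay within 5% of their median (-4.1% to 3.42%), so values were used as deposited, floored at the 40th percentile (6.60), and 7731 probe sets that exceeded it on 2 or more arrays were analysed. Of the 12422, 10833 had 1 gene symbol in the platform annotation, 396 several and 1193 none, and only the first kind was named. Probe sets of Polr1b, Nop58 and Nop16 (suffix f), Bysl (s), Bop1 (i), Eif4a1 and Eef1b2 (r) carry the maker's marks for probes that are shared with other sequences or chosen by relaxed rules. The probe set of Srm, named among the growth regulators, also has the suffix f.

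Differences from 0 h were counted at 1.5-fold and 2-fold with 1 probe set per gene. limma 3.58.1 (R 4.3.3; lmFit and eBayes with an intensity trend) tested the 5 progesterone arrays against 0 h, a trend over hours on 6 arrays (4 residual degrees of freedom) and the same on the 5 progesterone arrays (3). Called means a Benjamini-Hochberg adjusted p under 0.05 over all probe sets. Each pool is a different time, so the error is the spread between times or, in a trend, the departure from a straight line. The spread between pools of the same time was not measured. The fits were also run on simulated data, in which all arrays varied alike for a given probe set. Those runs cannot check the assumption on the lone 0 h array. Members and lists were chosen with earlier results of these data known, so no list was tested as a set. All members may be named; other pathway genes were named where called, or up to 4 per list with the largest median difference among those past 1.5-fold at some time. Alternatives covered the floor, the filter, the scaling, the intensity trend, the probe sets of a gene and each array left out. For members with 2 probe sets the choice was made before the filter.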

Additional observations from a re-analysis of the deposited data

How the results depend on the processing

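Under the floor, filter, scaling and probe set alternatives, members at least 1.5-fold higher numbered 10 to 15 at 6 h, 12 to 13 at 12 h, 12 to 13 at 15 h, 7 to 11 at 18 h and 3 to 4 at 24 h, and 19 to 22 lay above 0 h on all 5 arrays. Leaving out one time cannot change another time's difference from 0 h, so it says nothing about these counts. The share of all genes was not counted under these alternatives, so the member counts there have no background beside them. The nucleolar median at 24 h was 0.13 in place of 0.29 under a 60th percentile floor, which also lowered the median difference over times of Bysl from 1.49 to 0.91 and of Gnl3 from 1.22 to 0.79. The translation median at 12 h was 0.08 in place of 0.18 with no filter and also over members above the floor on all 6 arrays, where the gap between the classes at 12 h was 0.65 in place of 0.48.

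Calls were less stable. Members called against 0 h went from 3 to 0 with no filter, where 22 of 12422 probe sets rose and 202 fell. Members called in the trend on the progesterone arrays went from 2 to 1 under a 60th percentile floor, 0 with no filter, 6 with quantile normalization and 6 with trimmed mean scaling. Pathway genes called in that trend went from 0 to 1 under a 20th percentile floor and to 4 with either scaling. All probe sets called in it went from 147 to 71 under a 60th percentile floor, 0 with no filter (1486 at an unadjusted p under 0.05 with limma) and 251 with quantile normalization. In the trend on 6 arrays they went from 24 to 0 with no filter, 10 with quantile normalization and 12 with trimmed mean scaling. Pathway genes at least 1.5-fold higher at 6, 12, 15, 18 and 24 h numbered 17, 17, 21, 8 and 3, in place of 26, 27, 32, 14 and 5, under a 60th percentile floor, where fewer genes were tested. Of the probe sets called in the trend on the progesterone arrays 53.7% rose, or 41.8% after trimmed mean scaling; against 0 h the shares were 33.2% and 43.3%, and 9.82% with no filter. The share in the trend ranged from 47.6% to 100% with 1 progesterone array left out, the last over 2 probe sets.

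With 1 array left out, members called ranged from 0 to 8 against 0 h, were 0 in each trend fit over hours from 0 h, and ranged from 0 to 6 on the progesterone arrays. Pathway genes called ranged from 2 to 17 and, on the progesterone arrays, from 0 to 3. All probe sets called ranged from 49 to 845 against 0 h, from 0 to 97 in the trend from 0 h and from 2 to 271 on the progesterone arrays. The cause of these changes was not tested. No paired analysis was possible because each group is 1 array. A single array per time and a shared lower limit set the precision of every value.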

Other observations

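The array carries control probe sets for 18S ribosomal RNA. The 3' set had log2 levels of 7.29 at 0 h and 7.04, 6.95, 6.5, 6.77 and 6.83 at 6, 12, 15, 18 and 24 h, so all 5 progesterone arrays lay below 0 h, at 15 h under the floor of 6.60 used for genes. The 5' set went from 5.89 to 5.69 and 5.59 and to the lower limit of 5.39 from 15 h, and the middle set had 5.50 at 0 h and 5.39 to 5.82 later, all below that floor. These control sets entered no test. Whether their values follow the amount of ribosomal RNA was not tested, and that amount was not measured by other means here.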
